A study of Mus musculus with 9 samples.

Results

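The matrix metalloproteinases (MMPs) and the tissue inhibitors of metalloproteinases (TIMPs) measured here were Mmp8, Mmp9, Mmp12, Mmp13, Mmp14, Mmp19, Mmp25, Timp1 and Timp2, 9 of the 19938 genes on the arrays. They were taken by gene symbol from the platform annotation and, where a gene had several probe sets, selected on the highest mean log2 level over all 9 arrays. Each of the 9 genes had 1 probe set, so that mean level decided nothing. The 9 genes were listed with earlier results of these data known, so their differences are descriptions set against the replicate spread and not independent evidence. The whole family was therefore taken as well: 26 of its 27 listed genes were measured, and Mmp15 was not analysed here.

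RNA came from CD4-enriched T cells of C57BL/6J mouse spleen, cultured for 72 h with beads that carry anti-CD3 and anti-CD28 antibodies, which bind the T cell receptor's CD3 chains and the costimulatory receptor CD28. The 9 arrays formed 3 groups of 3. The first group was CD69-/- cells, the next was wild-type cells that received anti-CD69 antibody at 24 h, followed at 48 h by a secondary antibody to cross-link it, at 1 in 200 (called CD69-activated), and the last was wild-type cells with the beads alone. CD69, a C-type lectin of the membrane, is among the earliest surface markers of lymphocyte activation, and the series asks which genes depend on it. The labels describe no isotype control and no secondary antibody by itself, so effects of antibody as such and of CD69 ligation cannot be told apart. The sources used here do not say how the CD69-/- allele was made. The samples are labelled biological replicates, but whether mice were shared or pooled is not stated, so each p-value is set against the spread of these samples, which may be in part technical.

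MMPs are zinc-dependent proteases that cut collagens, elastin and other matrix proteins, and also cytokines and their receptors. Most are secreted as inactive proenzymes, some are held at the cell surface, and TIMPs block the active site. In the spleen they are best known from neutrophils, macrophages and stromal cells, while activated T cells can make some of them too.

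Values are log2 levels made by the authors with RMA, a method that gives 1 value per probe set and array. The array medians lay between 7.40 and 7.56. RMA values repeated exactly between arrays in 10277 of 19938 genes (51.5%) and in 6 of the 9 described genes, so that some SDs rest on equal values. Cd69 itself averaged 9.59 in CD69-/- cells, 11.79 in CD69-activated cells and 12.17 in wild-type cells. Xist, the non-coding RNA that silences an X chromosome in female mammals, averaged 6.01, 12.95 and 12.59 in the same groups, and the Y-linked gene Eif2s3y averaged 9.78, 4.35 and 4.33. The CD69-/- arrays thus had the pattern of male cells and the other 6 that of female cells, so in any comparison with CD69-/- the genotype cannot be told apart from sex. Cd4 averaged 12.35, 12.06 and 11.98 in these groups, but markers of CD8 T cells and B cells were high in every array too. The mean log2 level over 10 markers listed for CD4 T cells, which besides Cd4 are shared with other T cells, was 12.04 to 12.07 in CD69-/-, 11.52 to 11.53 in CD69-activated and 11.56 to 11.63 in wild-type arrays. Over the pair of CD8 genes it was 12.33 to 12.39, 11.32 to 11.52 and 11.81 to 11.84. Over 14 B cell markers it was 11.62 to 11.71, 12.11 to 12.17 and 12.16 to 12.21. In such mixed RNA, fewer cells of a type and less RNA per cell cannot be told apart.

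Of the 9 genes, Mmp8, Mmp12 and Mmp13 had the largest differences in CD69-/- cells. These 3 lie in the MMP gene cluster of chromosome 9, and only their promoter windows are shown. Their lowest mean level was in CD69-/- cells, as was that of Mmp14, Mmp19 and Mmp25, so that direction is not particular to them. The windows are RefSeq's, build GRCm38.p6, plus strand, with 250 bases before and 50 from the annotated start. Mmp12 has 2 annotated starts and so 2 windows. Capitals mark 3 motifs searched on both strands: TGANTCA, the site of AP-1 (Fos and Jun dimers), AGGAAG, the PEA3 site of ETS factors, and the TATA box TATAAA. No match overlapped a match of another motif in these windows.
Mmp8, chr9:7558179-7558478: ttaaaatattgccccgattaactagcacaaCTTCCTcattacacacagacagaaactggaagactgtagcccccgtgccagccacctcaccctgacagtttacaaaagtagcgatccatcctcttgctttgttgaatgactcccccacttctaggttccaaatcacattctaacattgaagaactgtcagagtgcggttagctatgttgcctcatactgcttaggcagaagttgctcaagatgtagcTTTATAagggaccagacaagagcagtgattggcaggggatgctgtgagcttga
Mmp12, upstream start, chr9:7344147-7344446: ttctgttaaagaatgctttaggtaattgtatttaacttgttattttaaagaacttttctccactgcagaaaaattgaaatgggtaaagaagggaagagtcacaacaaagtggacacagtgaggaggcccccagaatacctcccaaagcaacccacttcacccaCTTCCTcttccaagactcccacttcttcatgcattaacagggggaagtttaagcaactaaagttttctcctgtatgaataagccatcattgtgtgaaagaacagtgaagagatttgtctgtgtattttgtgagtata
Mmp12, downstream start, chr9:7347124-7347423: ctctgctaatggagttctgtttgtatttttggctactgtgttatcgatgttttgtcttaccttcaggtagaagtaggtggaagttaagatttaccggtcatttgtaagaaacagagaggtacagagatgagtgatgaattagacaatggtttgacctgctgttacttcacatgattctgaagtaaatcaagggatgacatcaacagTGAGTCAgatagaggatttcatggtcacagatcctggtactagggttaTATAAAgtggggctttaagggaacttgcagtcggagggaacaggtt
Mmp13, chr9:7272264-7272563: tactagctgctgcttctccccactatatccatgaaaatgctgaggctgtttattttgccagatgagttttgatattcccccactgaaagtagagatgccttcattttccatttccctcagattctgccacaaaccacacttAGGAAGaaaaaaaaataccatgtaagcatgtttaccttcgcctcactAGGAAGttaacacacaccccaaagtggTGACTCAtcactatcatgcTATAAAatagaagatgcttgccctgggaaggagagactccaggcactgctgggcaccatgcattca

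The Mmp13 window held TGACTCA starting 35 bases before the start, AGGAAG at 109 and 62 bases before it and TATAAA at 16 bases before it. The downstream Mmp12 window held TGAGTCA starting 44 bases before the start and TATAAA beginning at base 5 after it, and the upstream Mmp12 window held a PEA3 match only, at 87 bases before the start. The Mmp8 window held a PEA3 match at 220 bases and a TATA match at 3 bases before the start, both on the minus strand, and no TGANTCA. Of the 10 genes of the cluster, 8 had TGANTCA in at least 1 window, as did 8 of all 22 family genes with a window. Over all 32851 windows in the table, 7.81% held TGANTCA, 35.4% held AGGAAG and 13.6% held TATAAA. Among the described genes 7 had a window, 2 of them with TGANTCA (Mmp12 and Mmp13) and 6 with AGGAAG. Mmp9 and Mmp19 had none in the table. A match describes these letters and is no evidence of binding.

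Collagenases cut the triple helix of fibrillar collagen, and the secreted collagenases of the list, Mmp8 and Mmp13, were lower in CD69-/- cells. Mmp8, stored in the granules of neutrophils, had log2 levels of 6.01, 5.65 and 5.60 in CD69-/- arrays, 8.33, 8.38 and 8.30 in CD69-activated arrays and 6.98, 6.997 and 6.98 in wild-type arrays. No array of any group reached into another group, and the order was CD69-/-, wild type, CD69-activated. Relative to wild type, Mmp8 was 2.35-fold lower in CD69-/- cells (log2 difference -1.23, SE 0.0858, limma adjusted p = 4.45e-06), the 9th lowest difference of 19938 genes. In CD69-activated cells it was 2.56-fold higher than in wild type (1.35, SE 0.0858, limma adjusted p = 1.77e-06), the 4th highest. Between CD69-activated and CD69-/- cells the difference was 2.58, a 6.00-fold excess in CD69-activated cells, and 2 genes exceeded it. Whether the CD69-/- levels of Mmp8 lie above background is not known here, and if they do not, the folds against that group are lower bounds. The SD of Mmp8 was 0.224 in CD69-/-, 0.0370 in CD69-activated and 0.0124 in wild-type arrays (n = 3 each), and 2 of the wild-type values were identical.

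Mmp13, the main interstitial collagenase of rodents, had log2 levels of 6.55, 6.79 and 6.53 in CD69-/- arrays, 7.34, 7.41 and 7.54 in CD69-activated arrays and 7.31, 7.13 and 7.13 in wild-type arrays. All CD69-/- arrays lay below all others, and the lowest CD69-activated array lay just above the highest wild-type array. In CD69-/- cells Mmp13 was 1.48-fold lower than in wild type (log2 difference -0.57, SE 0.0786, limma adjusted p = 0.00048). After CD69 activation its difference from wild type was 0.24 (SE 0.0786) with an adjusted p = 0.0516 in limma. It passed without CD69-/- replicate 2 (adjusted p = 0.0253), CD69-activated replicate 1 (0.0464) or wild-type replicate 1 (0.0347), and in 3 other settings (0.0387 to 0.0485).

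Mmp12, the macrophage elastase, which also cuts other matrix proteins, had the largest fall among the described genes in CD69-/- cells. Its log2 levels were 7.89, 8.19 and 7.93 in CD69-/- arrays, 9.84, 9.81 and 9.93 in CD69-activated arrays and 9.62, 9.44 and 9.44 in wild-type arrays. The groups did not overlap and had the same order as for Mmp8. Relative to wild type, Mmp12 was 2.82-fold lower in CD69-/- cells (log2 difference -1.49, SE 0.0780, limma adjusted p = 8.23e-07), the 7th lowest difference of all genes. In CD69-activated cells it was 1.28-fold higher (0.36, SE 0.0780, limma adjusted p = 0.00644). In each group the array with the highest Mmp12 level was also the array with the highest Mmp13 level, which was CD69-/- replicate 2, CD69-activated replicate 3 and wild-type replicate 1. Whether the probes of these related genes also bind each other's transcripts was not tested.

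**Figure D1:**
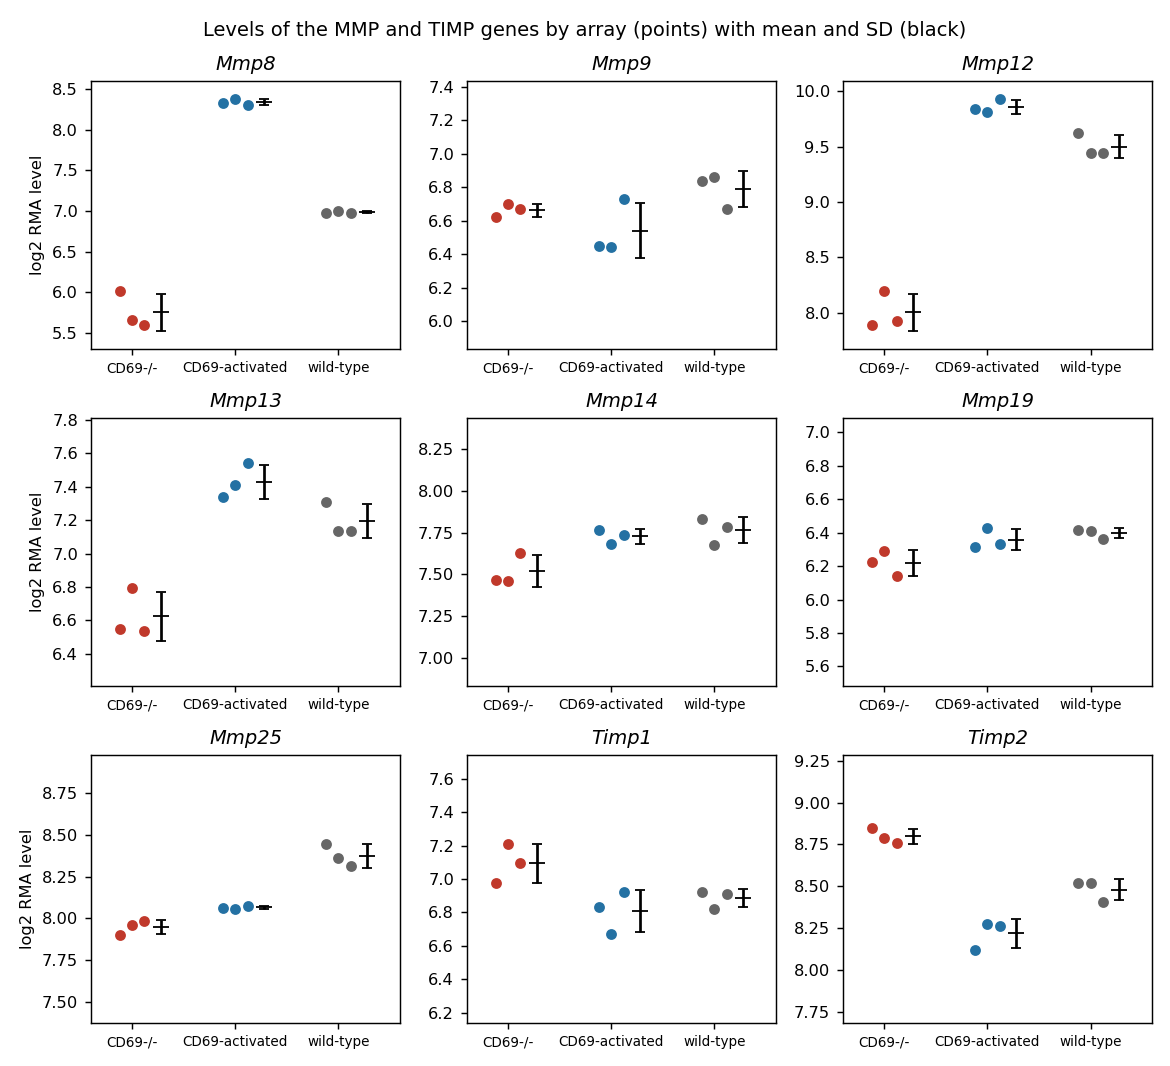
Log2 RMA level (y axis, each panel its own range) of the 9 MMP and TIMP genes in the 3 CD69-/-, 3 CD69-activated and 3 wild-type arrays, with points for arrays and black bars for mean and SD. Mmp8 and Mmp12 lie lowest in CD69-/- arrays (5.60 to 6.01 and 7.89 to 8.19) and highest in CD69-activated arrays, while Timp2 lies highest in CD69-/- arrays (8.76 to 8.85).

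Mmp9, gelatinase B, which cuts denatured collagen and is made by neutrophils and macrophages, showed small differences. Its log2 levels were 6.62, 6.70 and 6.67 in CD69-/- arrays, 6.45, 6.44 and 6.73 in CD69-activated arrays and 6.84, 6.86 and 6.67 in wild-type arrays. CD69-activated replicate 3 stood above the lowest wild-type array, so the groups overlapped. Mmp9 passed as lower after CD69 activation (log2 difference -0.25, SE 0.0769, limma adjusted p = 0.0377) but not in CD69-/- cells (-0.13, 95% interval -0.30 to 0.04, adjusted p = 0.336). The activation call was lost on leaving out each CD69-/- array in turn (adjusted p = 0.0537, 0.0545 and 0.0574), without CD69-activated replicate 1 (0.128) or 2 (0.124), without wild-type replicate 1 (0.120) or 2 (0.132), with the replicate number as a block (0.0597) and with a fit of the 6 arrays compared (0.0912).

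The membrane-bound members were lower in CD69-/- cells. Mmp25, a membrane-type MMP held by a lipid anchor and also called leukolysin, had log2 levels of 7.90, 7.96 and 7.98 in CD69-/- arrays, 8.06, 8.06 and 8.08 in CD69-activated arrays and 8.45, 8.36 and 8.31 in wild-type arrays. Wild type was the highest group, and neither of the others overlapped it. Mmp25 fell by 0.42 in CD69-/- cells (SE 0.0422, limma adjusted p = 4.67e-05) and by 0.31 after CD69 activation (SE 0.0422, limma adjusted p = 0.000366). Mmp14, a transmembrane collagenase that activates the proenzyme of MMP2, had 7.47, 7.46 and 7.63 in CD69-/- arrays, 7.77, 7.68 and 7.74 in CD69-activated arrays and 7.83, 7.68 and 7.79 in wild-type arrays. CD69-/- arrays lay below the others, and CD69-activated arrays lay within the wild-type range. It fell by 0.25 in CD69-/- cells (SE 0.0557, limma adjusted p = 0.0112), a call lost without CD69-/- replicate 1 (0.0544) or 2 (0.0520), and its difference after activation was -0.04 (95% interval -0.16 to 0.08).

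Mmp19, a secreted MMP outside the collagenase and gelatinase groups, had log2 levels of 6.23, 6.29 and 6.14 in CD69-/- arrays, 6.31, 6.43 and 6.33 in CD69-activated arrays and 6.42, 6.41 and 6.36 in wild-type arrays. CD69-/- arrays were the lowest, and the other groups overlapped. The difference of -0.18 in CD69-/- cells passed (SE 0.0474, limma adjusted p = 0.0284). The call ended after cyclic loess (0.125), with median centring (0.122), with centring over genes (0.0758), without CD69-/- replicate 1 (0.0762) or 3 (0.108) and without wild-type replicate 1 (0.0881), 2 (0.0886) or 3 (0.0521). After activation the difference was -0.04 (95% interval -0.14 to 0.07).

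Among the inhibitors, Timp2 was higher in CD69-/- cells and lower after CD69 activation, and Timp3 was lower after activation. Timp2, which inhibits MMPs and takes part in the activation of proMMP2 by MMP14, had log2 levels of 8.85, 8.79 and 8.76 in CD69-/- arrays, 8.12, 8.28 and 8.26 in CD69-activated arrays and 8.52, 8.52 and 8.41 in wild-type arrays. The 3 groups did not overlap, with CD69-/- highest and CD69-activated lowest. The difference from wild type was 0.32 in CD69-/- cells (SE 0.0517, limma adjusted p = 0.00143) and -0.26 in CD69-activated cells (SE 0.0517, limma adjusted p = 0.00382).

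Timp1, a secreted inhibitor encoded on the X chromosome, had 6.98, 7.21 and 7.10 in CD69-/- arrays, 6.83, 6.67 and 6.92 in CD69-activated arrays and 6.92, 6.82 and 6.91 in wild-type arrays. CD69-/- arrays were the highest, and the other groups overlapped. Its difference in CD69-/- cells was 0.21 (SE 0.0705, limma adjusted p = 0.0762), which passed with median centring (0.0330), centring over genes (0.0400), cyclic loess (0.0363) or array weights (0.0402) and without CD69-/- replicate 1 (0.0427) or CD69-activated replicate 2 (0.0439). After activation it was -0.08 (95% interval -0.23 to 0.08). For this X-linked gene as for the others, sex and genotype cannot be told apart in the CD69-/- arrays.

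Counted together, 6 of the 9 genes passed as lower in CD69-/- cells and 1 (Timp2) as higher, where 6.78% of all 19938 genes were lower and 8.36% were higher. In CD69-activated cells 2 (Mmp8 and Mmp12) passed as higher and 3 (Mmp9, Mmp25 and Timp2) as lower, where 10.1% of all genes were higher and 13.7% were lower. In either direction this is 7 of 9 in CD69-/- cells, against 15.1% of all genes, and 5 of 9 in CD69-activated cells, against 23.8%. These shares depend on the scaling: with median centring the calls over all genes were 2462 higher and 886 lower in CD69-/- cells, against 1667 and 1351 as deposited, and 764 and 4741 in CD69-activated cells, against 2015 and 2727. With a fold of at least 1.5 asked for as well, 2 (Mmp8 and Mmp12) were lower in CD69-/- cells and none was higher, against 0.747% and 0.406% of all genes, and 1 (Mmp8) was higher in CD69-activated cells and none was lower, against 0.281% and 1.3%. CD69-/- and wild-type arrays did not overlap for 8 of the 9 genes, against 33.2% of all genes, and CD69-activated and wild-type arrays for 5, against 36% of all genes. The median log2 difference of the 9 genes was -0.25 in CD69-/- cells and -0.04 in CD69-activated cells, beside -0.0091 and 0.017 over all genes. Because the genes were listed with results known, these shares say nothing about the 9 genes as a set. Both comparisons use the same wild-type arrays.

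The other 17 family genes were taken by the same rule. In CD69-/- cells limma called none of them, and at an unadjusted p below 0.05 there was 1, Mmp3 (stromelysin-1), named after its values were seen, at -0.22 (adjusted p = 0.0530). It passed without CD69-/- replicate 1 (0.0227), CD69-activated replicate 3 (0.0457) or wild-type replicate 3 (0.0377), with array weights (0.0297) and with an intensity trend and robust prior (0.0426). The 17 differences ran between -0.22 and 0.05, with a median of -0.042. In CD69-activated cells 1 passed, and the 17 ran between -0.74 and 0.17 with a median of 0.039. That gene was Timp3, an inhibitor that binds the matrix and also blocks the shedding protease ADAM17. Timp3 had log2 levels of 7.88, 7.61 and 7.69 in CD69-/- arrays, 7.17, 6.97 and 7.02 in CD69-activated arrays and 7.79, 7.76 and 7.82 in wild-type arrays. CD69-activated arrays lay below all others, and CD69-/- arrays ran across the wild-type range. Its level was 1.67-fold lower after activation (log2 difference -0.74, SE 0.0685, limma adjusted p = 2.79e-05), and in CD69-/- cells the difference was -0.07 (95% interval -0.22 to 0.08). Over the whole family of 26, 1 gene was higher and 6 were lower in CD69-/- cells, and 2 were higher and 4 were lower in CD69-activated cells. Those called in CD69-/- cells stand beside 15.1% of all genes. All of them are among the described genes, which were listed with results known. With median centring, centring over genes or cyclic loess, 2 were higher and 5 were lower in CD69-/- cells. The 6 of 26 called in CD69-activated cells are near the 23.8% of all genes, so that count sets the family apart from other genes in no way.

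**Figure D2:**
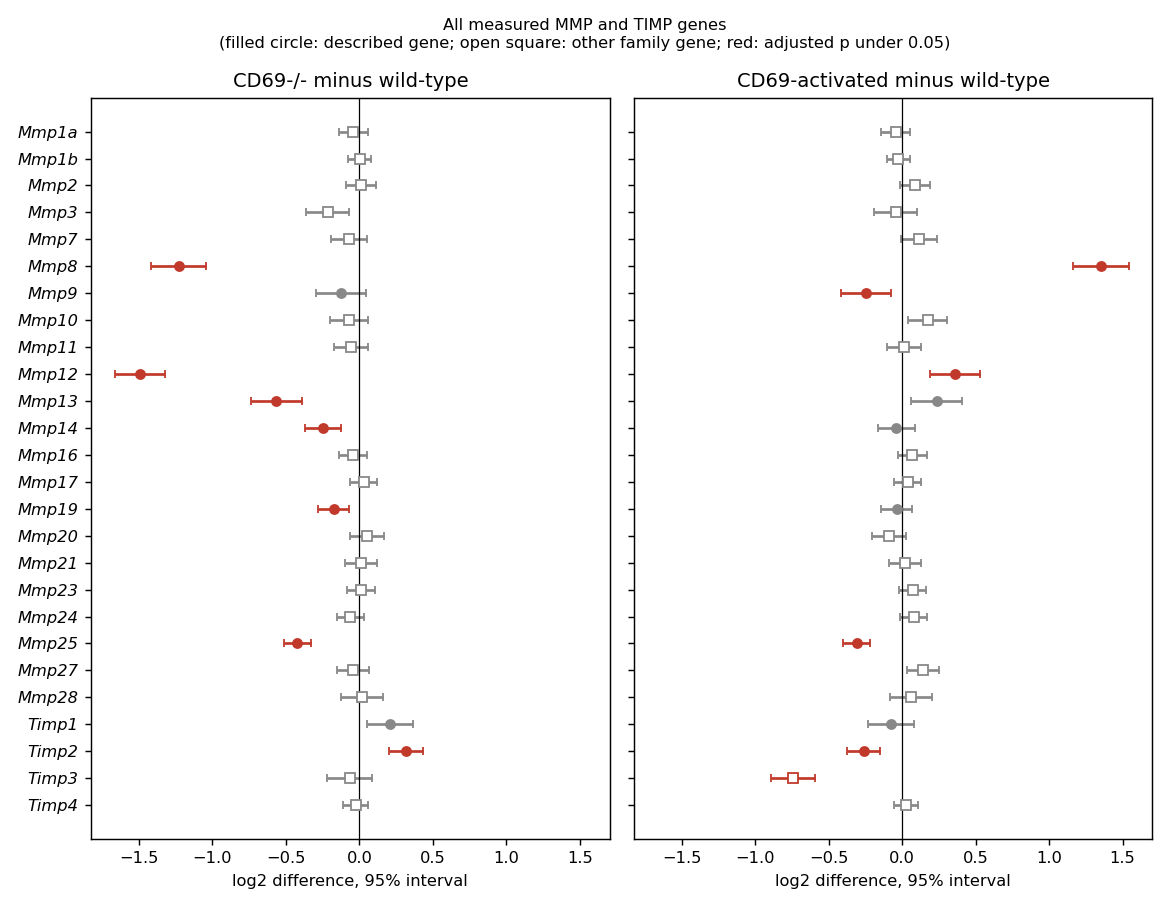
Log2 difference from wild type with its 95% interval (x axis) for all 26 measured MMP and TIMP genes, in CD69-/- cells on the left and CD69-activated cells on the right, with red for an adjusted p under 0.05. Mmp12 (-1.49) and Mmp8 (-1.23) stand apart on the left, and Mmp8 (1.35) and Timp3 (-0.74) on the right.

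Of the family genes, 10 lie next to each other on chromosome 9 with no other protein-coding gene between them in the RefSeq order, from Mmp13 and Mmp12 at one end to Mmp7 at the other. In CD69-/- cells 3 of the 10 were lower (Mmp13, Mmp12 and Mmp8) and none was higher. Of all genes, 6.78% were lower there and 8.36% were higher. These 3 are all among the described genes, which were listed with results known, so the count says nothing about the cluster as a whole. The other 7 had differences between -0.22 and 0.05, and none of them passed in either comparison with wild type. Mmp8 lies between Mmp10 (stromelysin-2), at -0.07 in CD69-/- and 0.17 in CD69-activated cells (adjusted p = 0.506 and 0.0565), and Mmp27, at -0.04 and 0.14 (adjusted p = 0.641 and 0.0633). Without CD69-activated replicate 2 both passed after activation, Mmp10 at 0.25 (adjusted p = 0.00228) and Mmp27 at 0.20 (0.0117). The flanking gene Dcun1d5 was at -0.03 in CD69-/- and -0.14 in CD69-activated cells, and Tmem123 on the far side was at -0.20 (adjusted p = 0.00884) and -0.17 (adjusted p = 0.0175).

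**Figure D3:**
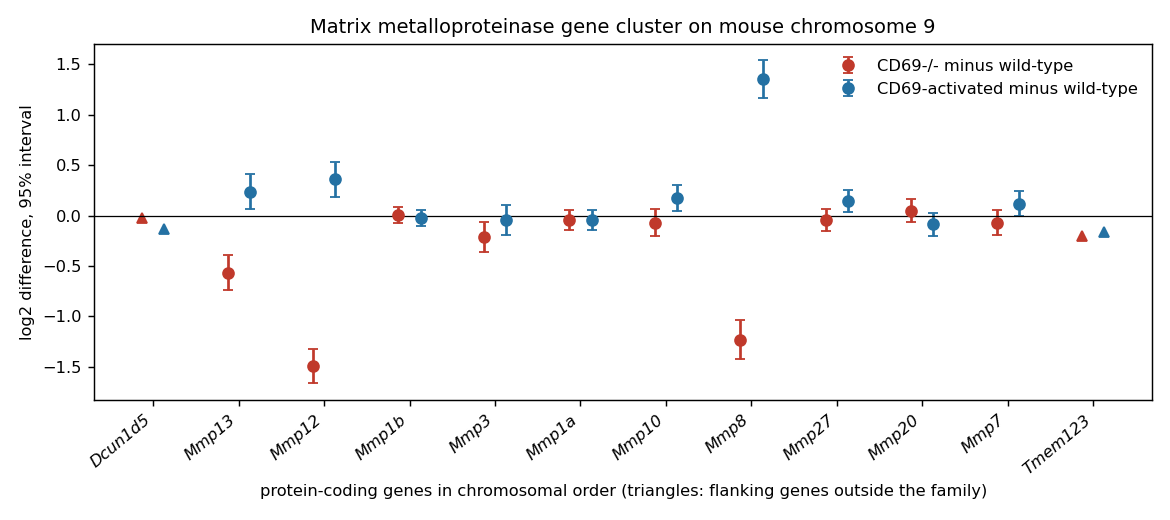
Log2 difference from wild type with its 95% interval (y axis) for the 10 MMP genes of the chromosome 9 cluster in gene order (x axis), with CD69-/- in red, CD69-activated in blue and the flanking genes as triangles. Mmp13, Mmp12 and Mmp8 lie furthest from zero in CD69-/- cells (-0.57, -1.49 and -1.23), while the genes between Mmp12 and Mmp8 lie between -0.22 and 0.17 in both comparisons. Among the latter, the intervals of Mmp3 in CD69-/- cells (-0.36 to -0.07) and Mmp10 in CD69-activated cells (0.04 to 0.30) also exclude zero. Neither was called.

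CD69-activated and CD69-/- cells differed in 6 of the 9 genes as higher in CD69-activated cells and in 2 as lower, where 21.6% of all genes were higher and 21% were lower. The 8 of 9 in either direction stand beside 42.6% of all genes. At a fold of at least 1.5 there were 3 higher (Mmp8, Mmp12 and Mmp13) and none lower, against 1.38% and 2.64% of all genes, with Timp2 just short of it at 1.495-fold. Mmp12 differed by 1.85 (limma adjusted p = 3.04e-08), Mmp13 by 0.80 (1.37e-05), Timp2 by -0.58 (6.86e-06), Timp1 by -0.29 (0.00740) and Mmp14 by 0.21 (0.0113). The groups did not overlap for 8 of the 9 genes, against 51.5% of all genes. Mmp25, at 0.12 (adjusted p = 0.0473), was at -0.01 (0.866) when arrays were centred on their medians, and its call was lost on leaving out each CD69-/- or CD69-activated array in turn (adjusted p between 0.0566 and 0.155) and without wild-type replicate 2 (0.0636), with centring over genes (0.114), with an intensity trend and robust prior (0.0704), with array weights (0.0640) and with the replicate number as a block (0.0825). Mmp19, at 0.14 (0.0365), was at 0.01 (0.885) with that centring, and its call was lost without CD69-/- replicate 1 (0.0768) or 3 (0.135), CD69-activated replicate 2 (0.117) or wild-type replicate 2 (0.0513), with centring over genes (0.101), with cyclic loess (0.456) and with a fit of the 6 arrays compared (0.0689). Mmp14 was at 0.08 (0.277) with that centring. Mmp9, at -0.12 (0.219), passed without CD69-activated replicate 3 (0.0144) and with that centring (0.0234).

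That centring moved the median difference of all genes between CD69-activated and CD69-/- cells to -0.092, against 0.035 with the values as deposited. With it the calls over all genes were 1354 higher and 7990 lower, against 4314 and 4187, and in the family 3 higher and 7 lower, against 10 and 3. Centring over genes gave 8 and 4 in the family, and cyclic loess 6 and 4. A further 4 family genes passed as higher with the values as deposited: Mmp7 (matrilysin) at 0.19, Mmp10 at 0.24, Mmp24 at 0.14 and Mmp27 at 0.19. None of these 4 passed with that centring. Mmp7 was lost without CD69-/- replicate 3 (0.0789) or CD69-activated replicate 1 (0.0581) or 2 (0.0659), and Mmp24 without CD69-/- replicate 1 (0.0557) or 2 (0.0645) or CD69-activated replicate 1 (0.0612) or 2 (0.0551). Timp3 was at -0.68 (limma adjusted p = 1.76e-05).

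Most markers of macrophages were lower in CD69-/- cells, as Mmp12 was. Over all genes 6.78% were lower and 8.36% higher in CD69-/- cells, and 13.7% lower and 10.1% higher in CD69-activated cells. Of 21 measured markers of monocytes and macrophages 15 were lower and 1 was higher in CD69-/- cells (median -0.38), with the macrophage surface marker Adgre1 at -1.86, the glucan receptor Clec7a at -1.19, the integrin chain Itgam at -0.88 and the complement gene C1qb at -0.88. The marker that was higher in CD69-/- cells, Ccr2, was at 0.51. Mmp12 lay below 20 of the 21. In CD69-activated cells 6 were higher and 4 were lower. The median there was 0.0, with 11 markers above zero and 10 below it. Adgre1 was at 0.85, Cd14, the endotoxin co-receptor, at 0.46, the heme oxygenase Hmox1 at 0.46 and C1qb at -0.53. Mmp12 lay above 18 of the 21. With median centring 3 were higher and 6 were lower in CD69-activated cells, and 1 was higher and 13 were lower in CD69-/- cells. The mean log2 level over the 21 markers was 7.14 to 7.21 in CD69-/-, 7.66 to 7.67 in CD69-activated and 7.60 to 7.64 in wild-type arrays. The part of these cells in the level of Mmp12 was not tested.

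Neutrophil markers had smaller differences than Mmp8. Of 18 measured neutrophil markers 2 were lower and none was higher in CD69-/- cells (median -0.093), namely the siderophore binder Lcn2 at -0.69 and Retnlg at -0.40. In CD69-activated cells 3 were higher and 1 was lower (median 0.047), with Lcn2 at 0.71, Chil3 at 0.22, Cd177 at 0.17 and the protease Ctsg at -0.45. With median centring 1 was higher and 5 were lower, and with cyclic loess 1 and 2. As deposited, neither count exceeded the share of all genes called, 15.1% in CD69-/- and 23.8% in CD69-activated cells. Mmp8 lay beyond all 18 in both comparisons. The calprotectin gene S100a8, named after its values were seen, averaged 5.73 in CD69-/-, 5.95 in CD69-activated and 5.80 in wild-type arrays. These levels are low, near that of Timp4, whose mean of 5.78 over all arrays lay at percentile 16.9 of the genes. Whether S100a8 and the other dim markers lie above background is not known here, so their small differences say little about neutrophils. The mean over the 18 markers was 6.36 to 6.42 in CD69-/-, 6.53 to 6.57 in CD69-activated and 6.49 to 6.53 in wild-type arrays. The part of neutrophils in the level of Mmp8 was not tested.

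**Figure D4:**
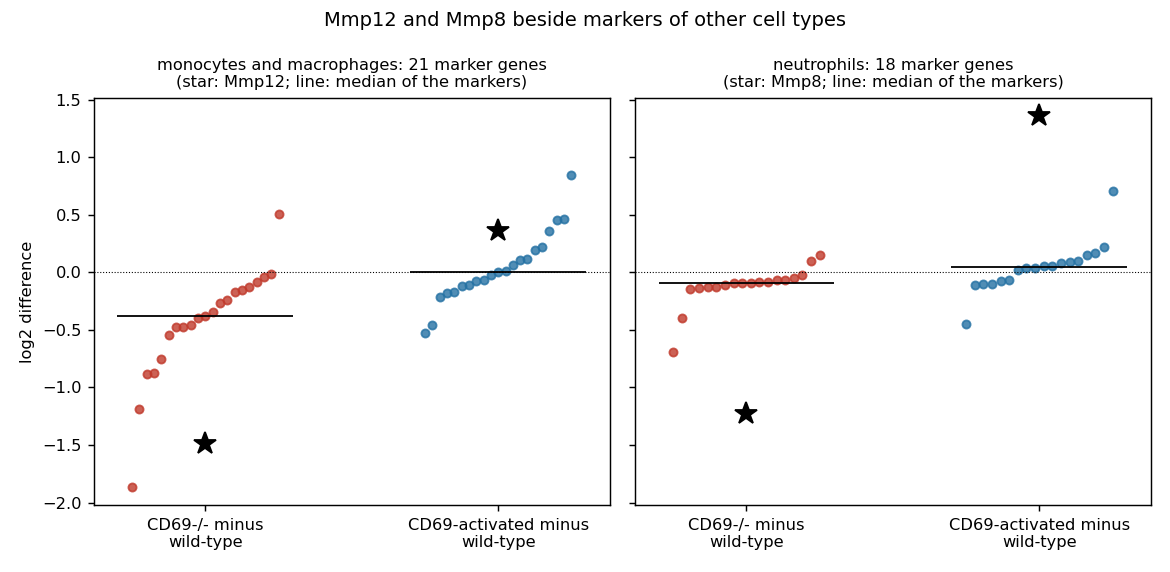
Log2 difference from wild type (y axis) of Mmp12 (star) beside 21 markers of monocytes and macrophages, and of Mmp8 (star) beside 18 neutrophil markers, in CD69-/- (red) and CD69-activated (blue) cells, each point a marker gene and each line the median of the markers. Mmp12 lies below all of its markers but Adgre1 (-1.86) in CD69-/- cells, and Mmp8 lies outside the range of its markers in both comparisons.

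Counts of markers of other cell types stand beside 15.1% of all genes called in CD69-/- cells and 23.8% in CD69-activated cells. All 14 B cell markers were lower in CD69-/- cells (median -0.48), led by the IgE receptor Fcer2a at -0.97, and in CD69-activated cells 2 were higher and 2 were lower (0 and 7 with median centring). All 10 markers of the CD4 T cell list, most of them shared with CD8 T cells, were higher in CD69-/- cells (median 0.42), and 3 were lower in CD69-activated cells, led by Thy1 at -0.37. Both CD8 genes were higher in CD69-/- cells and lower in CD69-activated cells, with Cd8a at 0.61 and -0.54. Mast cell, basophil and eosinophil markers were lower in 8 of 12 cases and higher in 1 in CD69-/- cells, and lower in 6 and higher in 1 in CD69-activated cells, with the basophil protease Mcpt8 at -0.85 and -0.55. Dendritic cell markers were lower in 3 of 12 cases and higher in 1 in CD69-/- cells, and lower in 2 and higher in 1 in CD69-activated cells. NK cell markers were lower in 5 of 10 cases and higher in 3 in CD69-/- cells, and lower in 8 in CD69-activated cells. Of 16 stromal and endothelial markers 3 were lower in CD69-/- cells, led by Pdpn at -0.41, and 1, Pdpn at 0.39, was higher in CD69-activated cells. The dendritic cell count in CD69-activated cells and the stromal count in CD69-/- cells were near those shares of all genes. The stromal count in CD69-activated cells was below its share.

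Genes that activate, bind or restrain MMPs passed in both directions. Their counts stand beside 15.1% of all genes called in CD69-/- cells and 23.8% in CD69-activated cells. Between CD69-activated and CD69-/- cells the share of all genes was 42.6%. Plasmin cuts MMP proenzymes, and of 21 measured genes of this list 5 were lower and 1 was higher in CD69-/- cells (median -0.070). Serpinb2, an inhibitor of plasminogen activators, was 1.11 lower on the log2 scale (-1.11, SE 0.0819, limma adjusted p = 6.61e-06). Thbs1, encoding thrombospondin-1, was at -0.72, the urokinase receptor Plaur at -0.64 and urokinase, Plau, at -0.43. In CD69-activated cells 5 were higher and 2 were lower (median 0.013), with Thbs1 at 0.42, Plaur at 0.41, Ctsg at -0.45 and Plau at -0.33, and with median centring 3 were higher and 6 were lower. Between CD69-activated and CD69-/- cells 7 were higher and 4 were lower, against 4 and 6 with median centring.

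Genes that induce MMP transcription split in both comparisons. Of 23 measured, 10 were higher and 5 were lower in CD69-/- cells (median 0.050), and 3 were higher and 8 were lower in CD69-activated cells (median -0.13). Over all genes, 15.1% were called in CD69-/- cells and 23.8% in CD69-activated cells. With median centring 11 of the 23 were higher and 4 were lower in CD69-/- cells, and 3 and 14 in CD69-activated cells. Il1a, encoding interleukin-1 alpha, was at -0.94 in CD69-/- cells (SE 0.0632, limma adjusted p = 3.62e-06) and at 0.64 in CD69-activated cells (SE 0.0632, limma adjusted p = 4.65e-05). Il1b was at -0.50 and 0.63 in the same order. Tnf ran the other way, at 0.67 in CD69-/- and -0.52 in CD69-activated cells. The AP-1 gene Fosl2 was at 0.50 in CD69-/- cells, and Csf2, encoding the myeloid growth factor GM-CSF, was at -0.62 in CD69-activated cells. Between CD69-activated and CD69-/- cells 3 were higher and 11 were lower, against 3 and 18 with median centring. Over all genes, 42.6% were called there with the values as deposited.

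The counts of matrix substrates and of the related ADAM proteases against wild type stand beside 15.1% of all genes called in CD69-/- cells and 23.8% in CD69-activated cells. Of 23 measured matrix genes 4 were lower and none was higher in CD69-/- cells (median -0.078), with the basement membrane genes Nid1 at -0.49 and Lamc1 at -0.40, the matricellular gene Sparc at -0.37 and the fibronectin gene Fn1 at -0.21. In CD69-activated cells 1, Vcan at 0.28, was higher and 2 were lower, Sparc at -0.27 and Nid1 at -0.22. Between CD69-activated and CD69-/- cells 12 of the 23 were higher and none was lower, where 21.6% of all genes were higher. With median centring 1 was higher and 1 was lower, with centring over genes 6 and 0, and with cyclic loess 4 and 1. Of 31 ADAM and ADAMTS genes 1 was higher and 2 were lower in CD69-/- cells, with Adam19 at -0.40, Adamts9 at -0.19 and Adam15 at 0.18. In CD69-activated cells 6 were higher and 1 was lower, with Adamts6 at 0.40, Adamts10 at 0.32, Adam23 at -0.32 and Adamts9 at 0.27, and with median centring 3 were higher and 3 were lower. Between CD69-activated and CD69-/- cells 8 were higher and none was lower, against 5 and 4 with median centring.

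Some genes outside the family followed Mmp8 and Mmp12 closely over the 9 arrays, given as a description because the arrays form 3 groups and the likeness is largely that of 3 group means. Nearest to Mmp8 by Pearson's r were Prkcd (0.994), Clec4d (0.994), Fam214a (0.994), Sspn (0.993) and Blk (0.993). Their own differences were smaller, with Clec4d at -0.72 in CD69-/- and 0.56 in CD69-activated cells and Blk at -0.53 and 0.55. Nearest to Mmp12 were Mef2c (0.997), Cerk (0.995), Pik3c2b (0.995), Hvcn1 (0.994) and Mgst1 (0.994). Among them Pik3c2b was at -0.81 in CD69-/- and 0.23 in CD69-activated cells, and Mgst1 at -0.65 and 0.21.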

How the data were processed

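RNA of CD4-enriched spleen T cells was measured on 9 one-colour Affymetrix mouse gene arrays. The authors deposited log2 values. Per the submitters' processing notes these are RMA values, with oligo and R 2.12.1 named. The sources used here do not give the settings or detection calls. Of 35556 probe sets 21789 had 1 gene symbol, 1621 several and 12146 none, and 21698 were matched by gene ID to RefSeq. The brightest probe set stood for each of 19938 genes.

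The deposited values were fitted without change in limma 3.58.1 under R 4.3.3 (3 group means over 9 arrays, eBayes without trend, two-sided). Adjusted p is Benjamini-Hochberg over all genes, called under 0.05, and intervals are 95% intervals of the fit. The number of arrays limits the precision.

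The genes and all lists were chosen with earlier results of these data known. Named are the 9 genes, family genes called in any comparison, up to 4 called genes per list with the largest difference, and for genes that differed at least 1.5-fold from wild type the 5 genes nearest by correlation. The fit was tested on simulated data. The alternatives were cyclic loess, median centring, the mean of a gene's probe sets, dropping the dimmest 25% of genes, dropping X and Y genes, array weights, a robust prior with intensity trend, a replicate block, only the 6 arrays compared, leaving out each array and, chosen after seeing the data, centring over genes. Python 3.11.15 and matplotlib 3.10.9 drew the figures.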

Additional observations from a re-analysis of the deposited data

How the results depend on the processing

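Each difference of the 9 genes was recomputed under 19 alternatives (18 for Timp1, which has no value without X and Y genes), 510 values in all, of which 456 kept their direction and side of the threshold, 39 lost the call, 14 gained it and 1 turned round. The value that turned round was Mmp25 between CD69-activated and CD69-/- cells, at -0.01 (-0.01216) with median centring. The calls of Mmp8, Mmp12, Mmp25 and Timp2 against wild type, and of Mmp13 in CD69-/- cells, held under all of them. Mmp8 ran between -1.36 and -1.15 in CD69-/- cells and between 1.27 and 1.37 in CD69-activated cells, and Mmp12 between -1.59 and -1.44 and between 0.28 and 0.42. Family genes called numbered 6 to 9 in CD69-/- cells and 5 to 9 in CD69-activated cells over the alternatives. Centring over genes gave 2555 higher and 1071 lower calls over all genes in CD69-/- cells, against 1667 and 1351. With the replicate block the numbers of family genes called were again 7, 6 and 13, but not all the same genes. Arrays of the same number did not deviate together (r between -0.242 and 0.142 over 9 pairs, 1 of 9 arrays nearest to its own number). The labels do not say whether the numbers pair samples, and so few arrays cannot exclude it. The block ended the calls of Mmp9 after activation and of Mmp25 between CD69-activated and CD69-/- cells. It brought in Mmp10 after activation (adjusted p = 0.0387) and Mmp20 between CD69-activated and CD69-/- cells (0.0426). Detection calls were not used here, so whether the lowest levels lie above background is unknown.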
